A study of Arabidopsis thaliana with 8 samples.

Results

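The peaks described here lay just upstream of tandem gene starts in the chromosome arms of *Arabidopsis thaliana*. A peak was included when its midpoint lay in no protein-coding gene and at most 500 bases upstream of a protein-coding gene start. The neighbouring gene on the upstream side had to be read from the same strand, with its end over 500 bases from the midpoint, and the pericentromeric blocks were left out. These upstream tandem peaks numbered 402 of 14180 peaks in the Col-0 list and 419 of 13549 in the *ndx1-4* list on chromosomes 1 to 5. The arms as a whole held 11493 and 10960 peaks. The rule used positions only and no measured level. Together the 821 peaks occupied 483 separate places and stood before 480 genes, of which 205 carried a symbol besides the locus tag.

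The peaks came from DRIP-seq, in which the S9.6 antibody pulls down DNA paired with RNA, on 10-day-old seedlings. Both groups were whole seedlings without further treatment: the Col-0 wild type, and *ndx1-4* plants, which carry a mutant allele of *NODULIN HOMEOBOX* (*NDX*), the only allele examined. The 8 libraries were, for Col-0 and for *ndx1-4* alike, an input, 2 pull-downs with S9.6 and a pull-down after RNase H, which removes the RNA of a hybrid. From these libraries a single list of peaks was used for Col-0 and a single one for *ndx1-4*, so no value has an error between replicates and no test between genotypes was possible. Intervals are 95% intervals (Wilson for shares, order statistics for medians) and cover counting error only. The depth of the libraries is unknown from the lists.

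An R-loop forms when RNA pairs with a DNA strand and leaves the other DNA strand single. R-loops often lie near the starts of transcribed genes, and in plants they have been mapped in both the sense and the antisense direction of genes. NDX is a homeodomain protein known for binding single-stranded DNA of an R-loop at the flowering regulator *FLC*. In a tandem arrangement the DNA upstream of a start follows the end of a gene read in the same direction, so that no second promoter faces away from the start as it does between head-to-head genes.

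Sequences of 5 of these places are given first, each the 300 bases directly before the annotated gene start, read 5′ to 3′ on the strand of the gene and taken from the RefSeq TAIR10.1 assembly. The 2 places with the highest Col-0 score and the 3 highest-scoring places with a GA repeat inside both peaks were chosen, among genes with an annotated leader. Capitals mark each GAGAGAGA or its complement TCTCTCTC and each run of 8 or more A or T (AAAAAAAA, TTTTTTTT).
AT3G02510, chr3:524676-524975, minus strand: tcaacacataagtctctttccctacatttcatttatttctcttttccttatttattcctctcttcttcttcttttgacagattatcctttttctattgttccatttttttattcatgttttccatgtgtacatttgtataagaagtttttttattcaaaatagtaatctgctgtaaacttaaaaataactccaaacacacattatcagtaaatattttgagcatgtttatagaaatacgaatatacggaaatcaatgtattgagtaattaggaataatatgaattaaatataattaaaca
AT2G01990, chr2:466956-467255, minus strand: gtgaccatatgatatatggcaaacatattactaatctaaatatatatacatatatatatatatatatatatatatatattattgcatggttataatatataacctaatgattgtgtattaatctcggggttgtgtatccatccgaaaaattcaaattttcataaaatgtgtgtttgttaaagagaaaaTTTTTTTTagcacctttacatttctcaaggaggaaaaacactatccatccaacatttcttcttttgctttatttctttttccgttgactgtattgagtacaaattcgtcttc
AT1G56090, chr1:20979449-20979748, minus strand: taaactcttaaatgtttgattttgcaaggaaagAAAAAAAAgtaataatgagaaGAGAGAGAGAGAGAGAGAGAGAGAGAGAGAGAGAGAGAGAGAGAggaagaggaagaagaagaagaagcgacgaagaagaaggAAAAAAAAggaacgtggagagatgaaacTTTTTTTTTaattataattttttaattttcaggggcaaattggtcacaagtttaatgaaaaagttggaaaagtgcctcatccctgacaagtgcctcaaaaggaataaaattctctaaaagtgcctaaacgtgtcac
KNU (AT5G14010), chr5:4521849-4522148, plus strand: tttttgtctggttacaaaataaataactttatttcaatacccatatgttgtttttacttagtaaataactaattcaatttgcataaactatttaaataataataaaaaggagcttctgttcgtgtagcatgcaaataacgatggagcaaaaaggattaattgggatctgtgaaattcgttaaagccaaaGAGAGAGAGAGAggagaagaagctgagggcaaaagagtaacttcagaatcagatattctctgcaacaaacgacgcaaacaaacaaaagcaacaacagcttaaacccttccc
AT3G28140, chr3:10470092-10470391, plus strand: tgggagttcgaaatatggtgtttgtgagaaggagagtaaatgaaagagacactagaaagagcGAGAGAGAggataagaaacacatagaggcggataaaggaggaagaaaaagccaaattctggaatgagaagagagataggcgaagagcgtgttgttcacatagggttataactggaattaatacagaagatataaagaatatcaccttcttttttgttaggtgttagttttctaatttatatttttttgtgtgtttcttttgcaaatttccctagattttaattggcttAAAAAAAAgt

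AT3G02510 encodes a protein of the RCC1 (regulator of chromosome condensation) family, and its upstream window had a GC content of 24.7% and none of the marked letters. In the window of AT2G01990, an XRI1-like gene, A and T alternated over 30 bases ending 222 bases before the start. The window of AT1G56090, which encodes a tetratricopeptide repeat protein, held the longest GA stretch of the 5, with G and A alternating over 46 bases and ending 202 bases before the start. *KNU* encodes the zinc finger protein KNUCKLES, which ends stem cell activity in the flower, and G and A alternated there over 14 bases. AT3G28140, which encodes an RNA ligase or cyclic nucleotide phosphodiesterase family protein, had a stretch of 9 bases. The 5 windows thus differed in their letters, and what the full set shared is given further on.

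The upstream tandem peaks lay close to the start rather than evenly over the 500 bases. Their midpoints lay a median of 142 bases (interval 124 to 166, n = 402) upstream in the Col-0 list and 145 bases (124 to 169, n = 419) in the *ndx1-4* list. In 50-base steps away from the start the Col-0 list had 96, 66, 49, 39 and 31 midpoints, and the *ndx1-4* list had 95, 72, 47, 49 and 32. These first 250 bases held 281 (69.9%) and 295 (70.4%) of the midpoints. Midpoints at most 100 bases from the start made up 40.3% (35.6 to 45.2%) and 39.9% (35.3 to 44.6%).

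A majority of the peaks ran across the start into the gene. In the Col-0 list 232 of 402 (57.7%, 52.8 to 62.4%) and in the *ndx1-4* list 231 of 419 (55.1%, 50.3 to 59.8%) covered the start base. Peaks reaching the coding sequence numbered 85 (21.1%) and 75 (17.9%). The remaining 170 and 188 peaks lay wholly upstream, their nearer edges a median of 124 and 129.5 bases short of the start. Since midpoints lay upstream by rule, a longer peak reached the start more readily. Peaks across the start had a median length of 340 bases in both lists and peaks wholly upstream one of 300 (Col-0) and 280 (*ndx1-4*). The plot of extents shows both kinds in one continuous range.

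**Figure D1:**
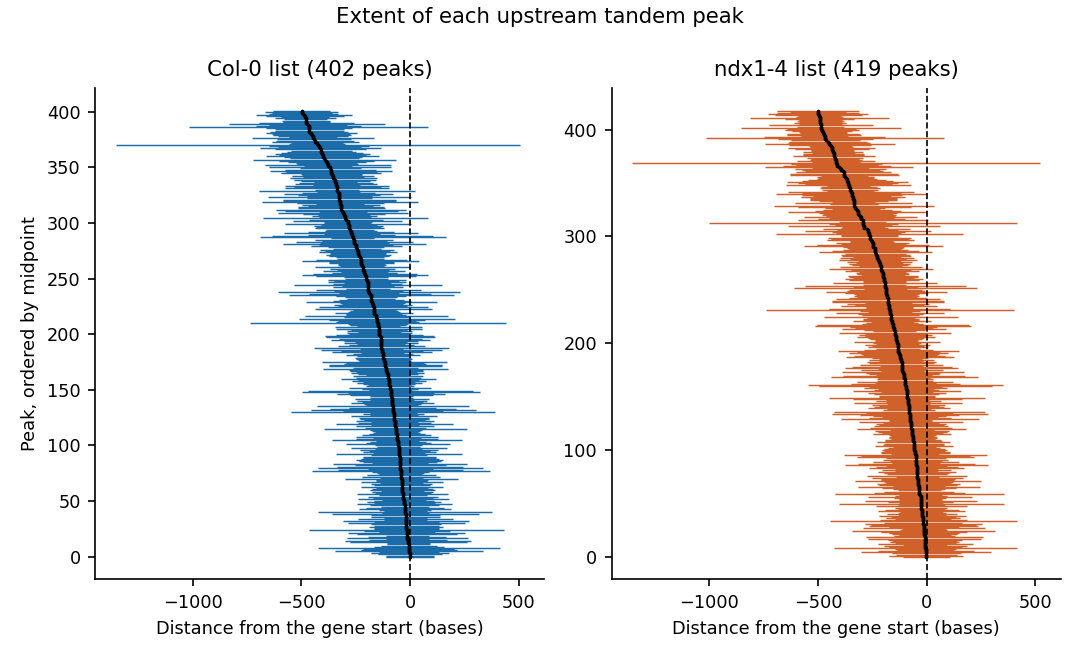
Each line is 1 upstream tandem peak from its upstream to its gene-side edge, on the distance from the gene start in bases, ordered by midpoint (black dots), for the 402 Col-0 and 419 *ndx1-4* peaks. Midpoints crowd toward the start (dashed line), and 232 and 231 lines cross it.

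Peak coverage was higher in the first 500 bases of the gene than in the 500 bases before the start. Around the 7804 eligible tandem starts of the arms (of 25517 protein-coding starts there), peaks covered 11.0% of the bases in the 100 bases before the start in Col-0 and 10.4% in *ndx1-4*. Coverage rose to 14.9% and 14.3% in bases 100 to 199 of the gene. It fell to its lowest, 3.12% and 2.97%, at 401 to 500 bases upstream, below the 4.86% and 4.52% of the arms as a whole. Counted as midpoints, the 500 bases upstream held 124 peaks per Mb in Col-0 and 129 in *ndx1-4*, against 121 and 115 over the arms and 333 and 317 in the first 500 bases of the gene. Only the bases that the rule allows were counted on the upstream side.

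**Figure D2:**
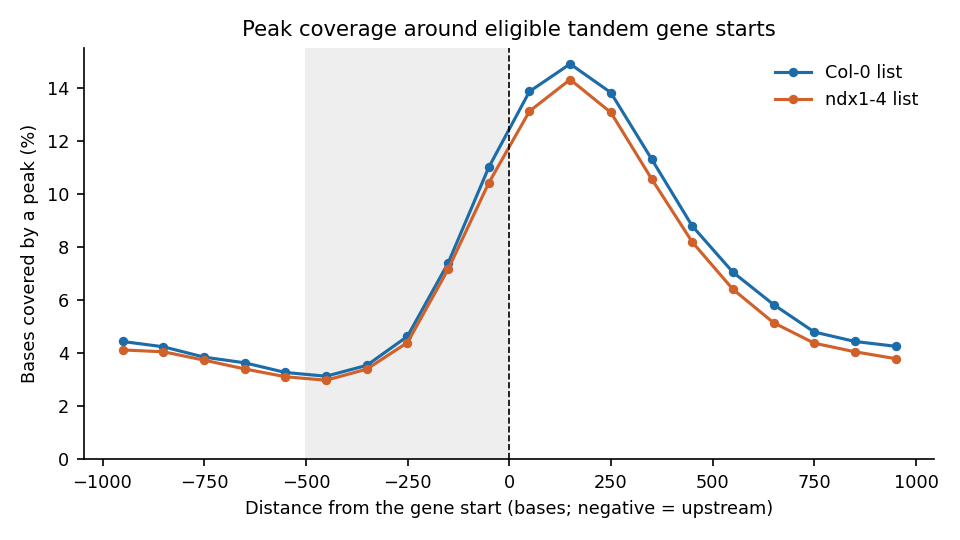
Share of bases covered by a peak (y, %) in 100-base steps from 1000 bases upstream to 1000 bases into the gene (x, bases) at 7804 eligible tandem starts, for the Col-0 and *ndx1-4* lists. The grey band is the 500 bases in which midpoints had to lie; coverage climbs across it from 3.12% and 2.97% to 11.0% and 10.4%.

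Few tandem starts carried such a peak. A peak stood before 402 of the 7804 eligible starts in Col-0 (5.15%) and before 417 in *ndx1-4* (5.34%). The share rose with the distance to the upstream gene. With a gap of 501 to 1000 bases a Col-0 peak stood before 2.59% of starts (2.03 to 3.31%) and an *ndx1-4* peak before 2.47% (1.92 to 3.17%). With a gap of over 4000 bases the shares were 7.80% (6.37 to 9.53%) and 8.34% (6.86 to 10.1%), and these intervals lay apart from those of the shortest gaps. A short gap leaves fewer allowed positions for a midpoint, so part of this slope follows from the rule. The median gap was 2056 bases before genes with a Col-0 peak, 2183 before those with an *ndx1-4* peak and 1454 before eligible genes with neither. Neither the annotated leader before the coding sequence (median 163, 174 and 163 bases) nor the gene length (1972, 1998 and 2038 bases) lay apart in the same way. At 16.9% and 15.8% of the starts with a peak, and 13.8% of those without, the annotated gene began at its coding sequence, so the true start of transcription may lie farther upstream.

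The upstream tandem peaks were about as many in the *ndx1-4* list as in the Col-0 list. The *ndx1-4* list held 1.04 times as many of them as the Col-0 list (interval 0.909 to 1.20), and 0.954 times as many arm peaks (0.929 to 0.979). The intervals of these ratios overlap, but they treat the peaks of the lists as independent, although most upstream peaks were present in both genotypes. The arm peaks also include the upstream peaks. The overlap of the intervals therefore does not decide whether the upstream peaks differed from the arm peaks in this respect. Peaks inside a gene within 500 bases of its start had a ratio of 0.953 (0.909 to 1.00) and head-to-head peaks within 500 bases of a start one of 0.986 (0.869 to 1.12). Genotype and library depth cannot be told apart here.

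Most of these peaks were present in both genotypes. Of the Col-0 peaks 354 of 402 (88.1%, 84.5 to 90.9%) had a partner, a peak of the *ndx1-4* list with a base or more in common. Of the *ndx1-4* peaks, 376 of 419 (89.7%, 86.5 to 92.3%) had a Col-0 partner. This left 48 Col-0 peaks (11.9%) without a partner, next to 12.0% of all Col-0 arm peaks, and 43 *ndx1-4* peaks (10.3%, 7.71 to 13.5%), next to 7.38% of all *ndx1-4* arm peaks. The Col-0 share thus lay close to that of the arms. The *ndx1-4* share lay slightly above, with the arm value just outside its interval. It was not particular to these peaks. Of *ndx1-4* head-to-head peaks 88.1% (84.8 to 90.7%) had a partner. Of tandem peaks with the upstream gene end within 500 bases 89.1% (83.6 to 92.9%) had one. Shares with a partner were higher inside a gene near its start (94.7%) and at convergent gene ends (93.8%). In tandem peaks with the start over 500 bases away the share was 91.3%. By gene, 339 of the 480 genes had an upstream peak in both lists, 63 in Col-0 alone and 78 in *ndx1-4* alone. Of these 63 genes, 17 had an *ndx1-4* peak overlapping the Col-0 peak that itself did not meet the rule there, and of the 78 genes 37 had such a Col-0 peak. The partner lay with its midpoint inside a protein-coding gene for 12 Col-0 peaks and for 30 *ndx1-4* peaks.

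The peaks without a partner were the weak and short ones of their list. Each list gives a whole-number score per peak whose unit is not stated in the sources used here, so scores are read only as percentiles within a list. The median score percentile of the peaks without a partner was 14.6 in Col-0 (n = 48) and 18.2 in *ndx1-4* (n = 43), and their median length was 220 bases in both. Each list was divided into 5 equal ranges of score percentile. In the lowest range 43 of 73 Col-0 peaks (58.9%, 47.4 to 69.5%) and 58 of 82 *ndx1-4* peaks (70.7%, 60.1 to 79.5%) had a partner. All arm peaks of the same range had one in 69.6% and 78.5% of cases. In the highest range 66 of 66 and 73 of 75 had one. The 100% of the Col-0 list there compares with 91.1% of all Col-0 arm peaks of the same score range, and the interval from 94.5 to 100% does not include the arm value.

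**Figure D3:**
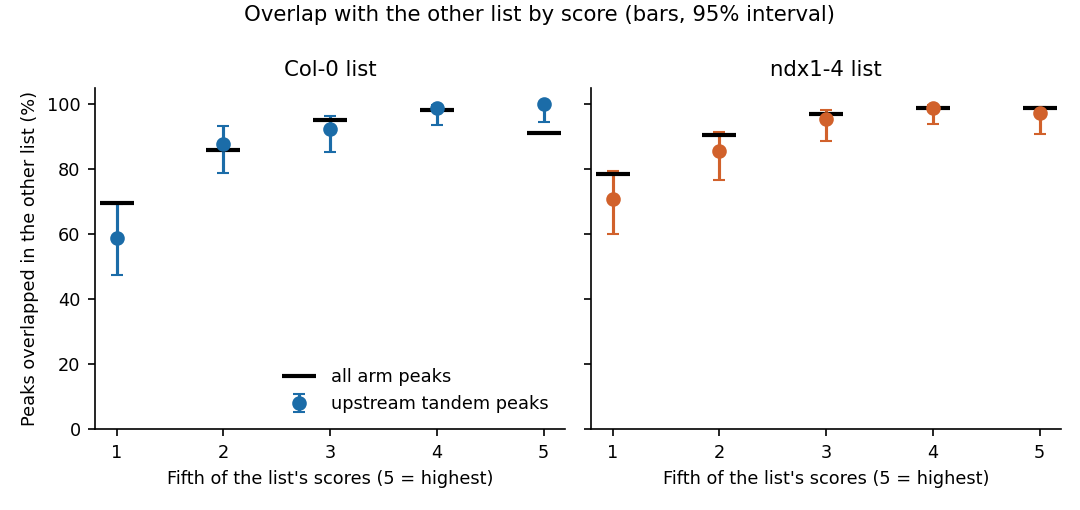
Share of upstream tandem peaks that overlap a peak of the other list (y, %; bars, 95% Wilson interval) by range of score percentile within their own list (x, 5 the highest), with black dashes for all arm peaks of the same range. Shares climb from 58.9% to 100% in Col-0 and from 70.7% to 97.3% in *ndx1-4*.

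A few unpartnered peaks stood out from this pattern. In the *ndx1-4* list a peak of 460 bases upstream of AT3G55960, a gene for a haloacid dehalogenase-like hydrolase, scored 178, the 94.5th percentile (chr3:20762941-20763400). A peak of 480 bases upstream of AT1G76880, a homeodomain-like gene, scored 141, the 85.5th percentile (chr1:28865001-28865480). The peak upstream of the MADS-box gene *AGL83* came next, at 111 and 200 bases. These were the 3 highest-scoring *ndx1-4* peaks without a partner, and the 3 longest were the same first pair and a peak of 420 bases upstream of AT1G68780, an RNI-like gene. The 3 highest-scoring unpartnered Col-0 peaks reached only the 60.6th, 58.6th and 57.5th percentile. They stood upstream of AT4G01350, a C1 domain gene, AT1G50760, a plant mobile domain gene, and *SAR1*, which encodes a nucleoporin. The longest unpartnered Col-0 peaks lay upstream of AT1G26190 (600 bases), a phosphoribulokinase or uridine kinase family gene, *UGT74F1* (400 bases), which encodes a glucosyltransferase of salicylic acid, and the zinc finger gene *ZFP3* (380 bases).

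The highest-scoring upstream tandem peaks were nearly the same places in the 2 lists. The peak upstream of AT3G02510 had the top score of the set in each list, 332 in Col-0 (99.4th percentile) and 291 in *ndx1-4* (99.5th percentile), with identical edges from 465 bases upstream to 94 bases into the gene. The peak of AT2G01990 also had identical edges, from 285 bases upstream to 254 bases into the gene, with scores of 266 and 256. AT1G63210, which encodes a homologue of the elongation factor Spt6, had a Col-0 peak of 940 bases scoring 265 and an *ndx1-4* peak of 900 bases scoring 261. These 3 genes were the leading 3 of both lists.

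Next in Col-0 came AT1G47495, which encodes an uncharacterized protein, and AT3G44780, a cysteine proteinase gene, with scores of 244 and 243. At AT1G47495 the overlapping *ndx1-4* peak was 1400 bases long against 580 in Col-0, which moved its midpoint into a protein-coding gene. *KNATM*, which encodes a KNOX protein without a homeodomain, was among the 6 highest-scoring of both lists, with scores of 242 and 231 and the same 1100-base extent in both. AT4G20310, a peptidase M50 gene, and AT5G57480, an ATPase-like gene, completed the *ndx1-4* group with 236 and 212. AT4G20310 was the only place of these whose peak lay wholly upstream, ending 116 bases short of the start.

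As a set the upstream tandem peaks were not strong. Col-0 peaks had a median score percentile of 49.2 (44.6 to 54.5) and *ndx1-4* peaks one of 49.5 (44.0 to 54.4), next to 48.6 and 49.5 for all arm peaks. Only 27 of 402 (6.72%) and 35 of 419 (8.35%, 6.07 to 11.4%) were among the top 10% of scores of their list. They were somewhat shorter than arm peaks, with a median of 320 bases in both lists (320 to 340 and 300 to 340) against 340, and fewer reached 500 bases. That length was met by 18.7% (15.2 to 22.8%) and 17.9% (14.5 to 21.9%) of them and by 24.6% and 22.6% of arm peaks. Head-to-head peaks were alike in this, with a median of 320 bases and 18.4% and 17.0% of at least 500 bases. The longest peak of the set lay upstream of *GRF5*, a growth-regulating factor that promotes leaf cell proliferation. It spanned 1860 bases in Col-0 and 1880 in *ndx1-4*, from 1355 bases upstream to 504 and 524 bases into the gene. Next in length were the peaks of the MADS-box gene *AGL76* (1180 and 1140 bases) and of *KNATM*. In the *ndx1-4* list a peak of 1420 bases lay upstream of *KCS12*, a 3-ketoacyl-CoA synthase gene of fatty acid elongation, where the Col-0 list had 2 separate peaks.

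Where an upstream peak and its partner overlapped only each other, their edges could be compared. There were 377 such pairs, 333 of them with both peaks in the set. Of the pairs 174 (46.2%, 41.2 to 51.2%) were narrower in *ndx1-4*, next to 43.0% of all such pairs in the arms. Another 97 (25.7%, 21.6 to 30.4%) were wider, next to 28.0%, and 106 were equal in length. Both shares thus lay within counting error of those of the arms. All edges lay on a grid of 20 bases, and 264 pairs (70.0%) differed by at most 1 grid step at each edge. Both edges were identical in 77 pairs.

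The gene-side edge differed more in one direction than the upstream edge did. It lay farther upstream in *ndx1-4* in 132 of 377 pairs (35.0%, 30.4 to 40.0%), farther into the gene in 56 (14.9%, 11.6 to 18.8%) and at the same base in 189. The upstream edge lay nearer the gene in *ndx1-4* in 121 pairs (32.1%, 27.6 to 37.0%), farther upstream in 98 (26.0%, 21.8 to 30.6%) and at the same base in 158. In pairs with both peaks in the set the gene-side edge lay farther upstream in 113 of 333 and farther into the gene in 47. The upstream edge of these pairs lay nearer the gene in 107 and farther upstream in 77. The rule on midpoints favours *ndx1-4* peaks shifted upstream among pairs with only an *ndx1-4* peak in the set, which numbered 32, against 12 with only a Col-0 peak. For comparison, 3059 pairs inside a gene within 500 bases of its start had the gene-side edge farther upstream in *ndx1-4* in 32.7% (31.1 to 34.4%) and farther into the gene in 20.3% (18.9 to 21.8%). The first share overlaps that of the upstream peaks and the second lies slightly above it. Those 3059 pairs had both midpoints inside the same gene, a different selection from that of the upstream pairs. In the same 3059 pairs the upstream edge lay nearer the gene in 31.2% and farther upstream in 21.5%, so both edges leaned about equally there. The part of library depth in these edge positions was not tested.

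**Figure D4:**
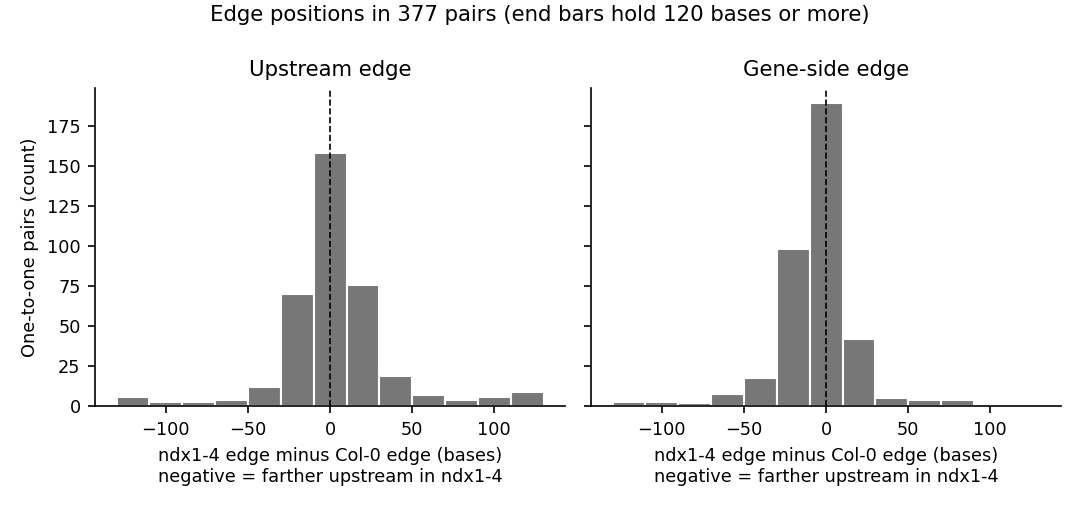
Position of the *ndx1-4* edge minus that of the Col-0 edge (x, bases along the gene, negative for farther upstream in *ndx1-4*, end bars open) in 377 pairs (y, count), for the upstream edge (left) and the gene-side edge (right). The bar at zero holds 158 and 189 pairs, and on the right the negative side holds 132 pairs against 56.

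Single pairs differed by up to 300 bases. Among the pairs that narrowed most in *ndx1-4*, the peaks upstream of the MADS-box gene AT1G59920 (400 to 200 bases) and of *DRB2* (580 to 380 bases), a double-stranded RNA-binding protein gene, lost 200 bases on the upstream side. Next came the peak upstream of AT1G51355 (580 to 400 bases), a gene for an SMR-type cyclin-dependent kinase inhibitor. It was followed by 3 peaks that narrowed by equal amounts upstream of the BEL1-like homeodomain gene *BLH7* (380 to 220 bases), the BAH domain gene AT4G23120 (360 to 200 bases) and *CDF2* (500 to 340 bases), which encodes a DOF factor of flowering time. The pairs that widened most were those of AT5G53750 (200 to 500 bases), *MYB111* (280 to 480 bases), AT3G14200 (480 to 660 bases) and, equal to each other, *TBL26* (240 to 380 bases) and AT1G15085 (340 to 480 bases), which encodes an uncharacterized protein. AT5G53750 encodes a CBS domain protein, *MYB111* an activator of flavonol synthesis genes, AT3G14200 a DnaJ chaperone and *TBL26* a TRICHOME BIREFRINGENCE-LIKE protein. The added bases lay on the upstream side in each of these pairs, and only at AT1G15085 did the Col-0 peak also meet the midpoint rule. The other widened pairs were in the set through the *ndx1-4* peak alone, so the rule itself favours upstream growth among them. With both peaks in the set, 2 of 333 pairs were wider in *ndx1-4* by 100 bases or more and 16 were narrower by as much.

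Score ranks were alike in the paired peaks. Over the 377 pairs the Spearman correlation of the scores was 0.94 and that of the lengths 0.89, given as a description since the pairs share the same 2 lists. The score percentile of the *ndx1-4* peak minus that of the Col-0 peak had quartiles of -5.48 and 4.77 points, and 295 pairs stayed within 10 points. The extremes were -39.1 and 32.2 points.

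The peaks were rich in A and T, as was the DNA around them. Median GC content was 30.6% in both lists (30.0 to 31.4% and 30.3 to 31.2%), against 34.9% and 34.7% over all arm peaks and 35.3% for peaks inside a gene near its start. Head-to-head peaks had similar medians of 31.2% and 30.9%. The starts themselves did not differ in this: the 300 bases upstream had a median GC content of 29.7% both before genes with a peak and before eligible genes without one. On the gene strand C outnumbered G slightly more before genes with a peak. The GC skew, (G - C) / (G + C), was -7.17% in Col-0 and -7.67% in *ndx1-4*, and -5.47% before eligible genes without a peak. The AT skew, (A - T) / (A + T), was 4.09%, 4.55% and 3.20%. In the 100 bases upstream it was 3.84%, 4.65% and 4.34%, so the AT difference did not hold there in Col-0. The skews were pooled over all bases of a group and have no interval.

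Short motifs set the starts with a peak apart more clearly than base composition. Motifs were searched in the 300 bases upstream of each eligible start, on both strands except the TATA box, and a match is a description and not a binding site. GAGAGAGA, the repeat shown in capitals in 3 of the printed sequences, was found before 49 of 402 starts with a Col-0 peak (12.2%, 9.34 to 15.8%) and 49 of 417 with an *ndx1-4* peak (11.8%, 9.00 to 15.2%). It was found before 4.41% (3.96 to 4.90%) of the 7324 eligible starts without a peak and 4.87% of all eligible starts. The repeat occurred in either orientation, with GAGAGAGA on the gene strand before 21 starts of each list and TCTCTCTC before 30 and 29. Of 333 pairs with both peaks in the set, 41 had the repeat in this window, and in 36 it lay inside both peaks.

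AAAAAAAA, a run known to stiffen DNA, was also more frequent, at 47.5% (42.7 to 52.4%) and 44.8% (40.1 to 49.6%) against 37.0% (35.9 to 38.1%) of starts without a peak and 37.5% of all. The excess lay on the gene strand. Runs of A read in the direction of the gene were found before 32.1% and 31.7% of starts with a peak and 22.4% without. Runs of T were found before 22.6% (18.8 to 27.0%), 19.7% and 18.8%, whose intervals overlap.

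Some promoter motifs were scarcer before starts with a peak than before starts without one. TGGGCC, the site II element of many ribosomal and cell cycle genes, was found before 3.73% (2.27 to 6.06%) of starts with a Col-0 peak and 3.84% (2.38 to 6.14%) with an *ndx1-4* peak, against 10.3% (9.59 to 11.0%) without and 9.87% of all. CACGTG, the G-box bound by bZIP and bHLH factors, was found before 2.49% (1.36 to 4.52%) and 3.12% (1.83 to 5.26%), against 7.10% (6.53 to 7.71%) without and 6.84% of all. CCAAT was found before 42.3% (37.6 to 47.2%) and 42.9% (38.3 to 47.7%), against 50.3% (49.2 to 51.5%) without and 49.9% of all. For 2 motifs no difference was detectable at these counts. TATAAA on the gene strand was found before 40.5% and 42.0% against 42.9% without and of all, and AAACCCTA, the telo box, before 6.22% and 6.24% against 4.60% without and 4.68% of all.

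**Figure D5:**
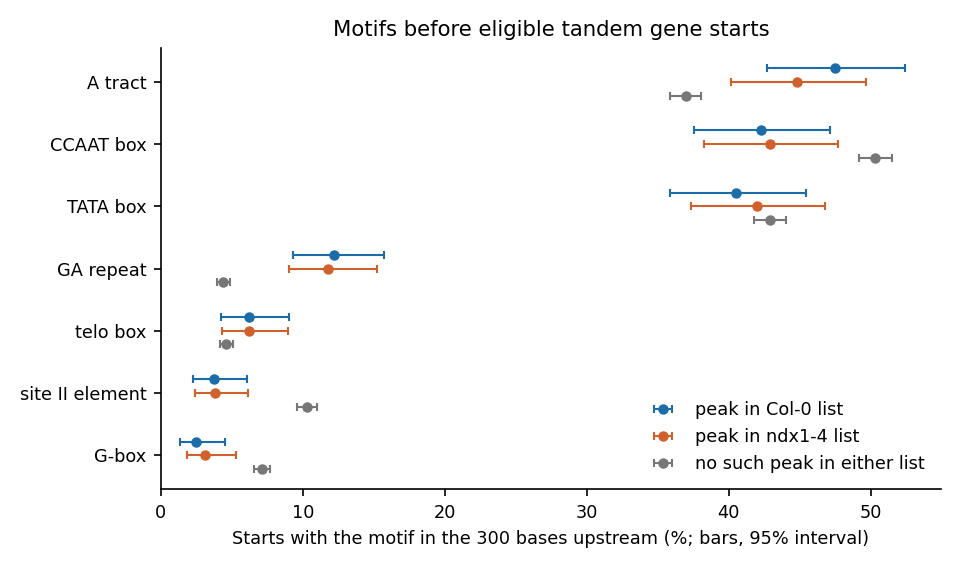
Share of eligible tandem starts with each motif in the 300 bases upstream (x, %; bars, 95% Wilson interval), for starts with an upstream peak in Col-0 (n = 402), in *ndx1-4* (n = 417) and in neither list (n = 7324). GA repeats and A tracts lie to the right of the grey points, site II elements, G-boxes and CCAAT boxes to the left.

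Since starts with a peak had longer gaps, the shares were also taken among eligible starts with a gap of over 1000 bases. There GAGAGAGA was found before 12.9% (Col-0) and 12.3% (*ndx1-4*) against 4.28% without a peak. CACGTG was found before 2.65% and 3.35% against 7.33%, and TGGGCC before 3.53% and 3.63% against 8.99%. This restriction was chosen after the data were seen, and the differences kept their direction. The 300-base window and the peaks cover partly different bases, so the central 200 bases of each peak were searched too. In these GAGAGAGA was found in 15.4% (12.2 to 19.3%) of upstream Col-0 peaks and 13.6% (10.7 to 17.2%) of upstream *ndx1-4* peaks, close to the 13.1% and 12.9% of all arm peaks and below the 24.3% and 23.8% of peaks inside a gene near its start. AAAAAAAA was found in 37.8% (33.2 to 42.6%) and 36.0% (31.6 to 40.7%), above the 21.6% and 21.7% of all arm peaks and near the 38.8% of head-to-head peaks in either list. In tandem peaks with the start over 500 bases away, GAGAGAGA was less frequent (8.87% and 9.05%) and AAAAAAAA was intermediate (29.9% and 29.4%). In the central 200 bases TGGGCC was rare (1.49% and 2.39%, next to 1.53% and 1.72% of all arm peaks). CACGTG was rare too (1.49% and 1.43%, next to 1.57% and 1.55%). Peaks inside a gene near its start were alike, at 1.25% and 1.46% for TGGGCC and 1.59% and 1.37% for CACGTG. Head-to-head peaks had more, at 4.96% and 5.45% for TGGGCC and 3.51% and 3.98% for CACGTG. Tandem peaks with the start over 500 bases away lay between (2.55% and 3.04%, 2.22% and 2.28%). The head-to-head interval lay apart from that of the upstream peaks only for TGGGCC in Col-0 (3.35 to 7.27% against 0.686 to 3.22%).

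The genes downstream were of many kinds. Classes were formed by keywords in the RefSeq product names, and the share of eligible starts with a peak is read against 5.15% (Col-0) and 5.34% (*ndx1-4*). Genes named as transcription factors or DNA-binding proteins had a peak at 41 of 487 starts in Col-0 (8.42%, 6.27 to 11.2%) and at 39 in *ndx1-4* (8.01%, 5.91 to 10.8%). Genes with an auxin keyword had one at 10 of 75 (13.3%, 7.41 to 22.8%) and 9 of 75 (12.0%, 6.44 to 21.3%). In both classes the intervals lay above the share over all eligible starts, among the 19 classes examined. The transcription factor keywords missed some genes, among them *BLH7*, *CDF2* and *NPH4*. Gap length, with which the share of starts rose, was not taken into account in the classes. Genes with kinase in the product name, which joins protein kinases with kinase inhibitors, kinase regulators and metabolic kinases, had one at 31 of 451 starts in each list (6.87%, 4.88 to 9.59%). Transporters had one at 11 and 15 of 223 and cell wall enzymes at 6 of 132 in each. F-box, RING and U-box genes had one at 21 and 23 of 394, and genes of hypothetical or unknown function at 53 and 55 of 1000. For these the intervals included the share over all eligible starts. No peak stood before any of 14 histone genes, 10 gibberellin genes or 7 chlorophyll or photosystem genes, which at these numbers allows (upper Wilson bounds) shares of up to 21.5%, 27.8% and 35.4%.

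The genes with an auxin keyword ranged from a receptor to response factors. They are named here after their values were seen. The keywords did not take in every auxin gene, and *IAA12*, outside the class, had peaks of 520 bases in Col-0 and 500 in *ndx1-4*. *AFB5*, an auxin receptor F-box gene, had the strongest peak of the class, 580 bases long in both lists at the 95.6th percentile in Col-0 and the 97.1st in *ndx1-4*. *NPH4*, which encodes the auxin response factor ARF7, had peaks at the 80.7th and 85.2nd percentile. *ARF17*, a further response factor, had peaks of 200 and 220 bases at the 36.2nd and 42.5th. *DFL1* and *PBS3*, of the GH3 family of amino acid conjugating enzymes, had peaks of 320 bases in Col-0, and 320 and 300 bases in *ndx1-4*. A pair of SAUR-like genes, AT2G28085 and AT4G38860, also had a peak in each list. Only the *SAR1* peak of this class lacked a partner in *ndx1-4*.

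The transcription factor genes included regulators of organ and cell identity, likewise named after their values were seen. *XND1*, a NAC factor of xylem development, had peaks of 820 and 800 bases at the 85.3rd and 85.5th percentile. *AGL15*, a MADS-box gene of embryo development, had peaks of 620 and 680 bases. *MUTE*, a switch of stomatal development, had short peaks of 220 and 240 bases at the 9.12th and 21.6th percentile. *PHB*, which sets the upper leaf side, had peaks of 240 and 220 bases at the 0.698th and 1.44th percentile. The named peaks of this class thus stood anywhere from near the bottom of their list to its upper range.

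Short lists of genes of flowering, abscisic acid signalling, silencing and R-loop metabolism held 3 genes with an upstream tandem peak, to be read against the 5.15% and 5.34% of all eligible starts. Of 22 flowering genes 13 had an eligible start, and 1 of them, *VRN5*, a PHD finger protein of vernalization, had a peak. It was 280 bases long in Col-0 (47.4th percentile) and 220 bases in *ndx1-4* (26.5th percentile), wholly upstream in both. Of 29 abscisic acid genes 16 had an eligible start, and *ABI4* and *PYL12* had a peak. The peaks of *ABI4*, a transcription factor of abscisic acid and sugar responses, were 720 and 700 bases long and stood at the 85.0th and 90.1st percentile. They ran from 695 bases upstream to 24 and 4 bases past the annotated start, which is the start of the coding sequence in this annotation. The peaks of *PYL12*, of the abscisic acid receptor family, were 340 and 380 bases long with midpoints 499 bases upstream, at the very limit of the rule. Of 23 Polycomb and silencing genes 22 were matched by name, and none of their 7 eligible starts had a peak. Of 11 R-loop genes only 4 were matched by name, and none of these had an eligible start. The other R-loop genes were not examined. With so few starts these counts do not set the lists apart from other genes. Some related genes outside the lists had a peak in both genotypes, among them the Argonaute gene *AGO2*, the DNA demethylase gene *DML3* and the abscisic acid response gene *ABO3*. They were picked after their values were seen, because they had a peak. Related genes without a peak were not counted, so these names give no share to set beside that of all eligible starts.

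A few midpoints lay in noncoding annotations, 19 (4.73%) in Col-0 and 22 (5.25%) in *ndx1-4*. Long noncoding RNA genes took 12 and 13 of these, other RNA genes 3 and 4, and pseudogenes the rest. A further peak of the same list covered part of the gene body at 100 of the Col-0 genes and 101 of the *ndx1-4* genes. The limits of the rule cut through a continuous set. With midpoints 401 to 500 bases upstream there were 42 and 54 peaks, and with midpoints 501 to 600 bases upstream there were 41 and 30 that met the other conditions. Peaks with the upstream gene end 501 to 600 bases away numbered 21 and 23, and those with it 401 to 500 bases away 22 and 25. Median lengths on either side of the limits ranged from 280 to 370 bases.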

How the data were processed

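DRIP-seq libraries were grouped by genotype and treatment from the sample titles. The authors deposited 1 peak list per genotype with a whole-number score per peak. How input, RNase H and immunoprecipitation libraries entered the calls is not given in the sources used here. The submitters' processing notes name Bowtie2, SAMtools, Picard, deepTools, MACS2 and TAIR10, without roles. The shortest peak spanned 200 bases and the lowest score was 53. Peaks fitted the RefSeq TAIR10.1 chromosome lengths.

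Starts are the annotated gene ends on the coding strand. Pericentromeric blocks left out were 12.6 to 17.2 Mb (chromosome 1), 1.2 to 7.1 (2), 10.7 to 16.1 (3), 2.7 to 6.1 (4) and 9.9 to 14.6 (5). A partner shares at least 1 base. Eligible starts are those whose preceding base meets the rule. Single genes were named by rule: the 6 highest-scoring and 4 longest peaks per list, the 3 highest-scoring and 3 longest without a partner, the 4 pairs most narrowed and most widened with ties, and fixed pathway lists; others are marked in the text. The members and lists were chosen with earlier results of these data known. The 7 alternatives varied both distance limits, score, length, merging, noncoding genes and overlap, and another, chosen after seeing the data, took motif shares at gaps of over 1000 bases. Scripts (Python 3.11.15, pandas 2.3.3) were tested on simulated data. The paper supplied style only.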

Additional observations from a re-analysis of the deposited data

Results flagged for a closer look

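The pericentromeric blocks held peaks that met the same position rule but were left out of the set, 43 in the Col-0 list and 40 in the *ndx1-4* list. They drew attention as signal outside the main measurement. In each list 37 of them overlapped a peak of the other list, and their median lengths were 320 and 310 bases, next to 320 in the arms.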

How the results depend on the processing

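Over 7 alternatives, 80 values stayed within the interval of the reported value (counts within 1.5 times) and 21 did not. At gaps of over 1000 bases, an alternative chosen after seeing the data, 6 of 6 motif shares stayed within theirs. That alternative kept 340 of the 402 starts with a Col-0 peak and 358 of the 417 with an *ndx1-4* peak. The shares thus had little room to move. With midpoints at most 300 bases from the start, 74.4% (Col-0) and 71.3% (*ndx1-4*) of peaks covered the start, and 3.91% and 4.06% of eligible starts had a peak. With the upstream gene end over 1000 bases away, 5.90% of eligible starts had an *ndx1-4* peak. In the higher-scoring 50% of each list there were 194 and 204 upstream peaks with median lengths of 380 bases each; 64.9% and 62.3% covered the start, and 2.49% and 2.61% of eligible starts had one. Among peaks of at least 300 bases there were 255 and 248, with median lengths of 400 bases each, 3.27% and 3.18% of eligible starts, 83.9% of Col-0 peaks with a partner and 64.5% of *ndx1-4* peaks over the start. Lower counts and shares of starts under the midpoint, score and length limits follow from keeping fewer peaks. Longer medians under the length limit follow from that limit. The cause of the other moves was not tested. The ratio of the lists stayed within its interval throughout, and was 0.973 for peaks of at least 300 bases. No paired analysis was possible because the files hold no list per replicate.

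Without read counts, depth and replicate spread are unknown, and a weak peak missing from a list is not shown to be absent from the genotype. Motif windows depend on the annotated start.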
